A study of Arabidopsis thaliana with 12 samples.

Results

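The genes described here are 45 nuclear genes of Arabidopsis thaliana that encode light-harvesting chlorophyll-binding proteins and subunits of photosystem I and photosystem II. They were chosen by gene name and locus identifier, not by a measured value, though with earlier results of these data known. They comprise 6 LHCA, 15 LHCB, 1 PSBS, 2 ELIP, 12 PSA and 9 PSB genes. They are 45 of 27432 protein-coding genes on chromosomes 1 to 5 to which the assembled loci were assigned. All 45 had a value in at least 1 library, and 37 of them were among the 17785 genes that could be tested. The 8 that could not be tested were LHCB1.1, LHCB5, LHCB7, PSAD2, PSAG, PSBP1, PSBW and PSBX. In most libraries where these lacked a value, 1 assembled locus ran over several neighbouring genes.

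Messenger RNA was sequenced from whole 14-day-old seedlings of val1 val2, val1, val2 and wild-type (WT) plants, with 3 biological replicates of each. VAL1 and VAL2 encode B3-type transcriptional repressors of the seed programme, and the mutant alleles are not named in the labels. Seeds had been kept for 3 days at 4 °C in the dark, and the seedlings were then raised on medium with 1% sucrose and 0.6% agar at 22 °C, with 16 h of light and 8 h of dark each day. All 4 groups thus shared sugar in the medium. RNA came from about 100 mg of seedlings per sample. The comparisons ask how expression differs when VAL1, VAL2 or both are mutated. The values are FPKM, fragments scaled to the length of the locus and to the size of the library, so they allow levels to be compared between genes per unit of length.

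Photosystem II and photosystem I are the chlorophyll-protein complexes of the thylakoid membrane that turn light into electron flow. LHCA proteins form the antenna of photosystem I, and LHCB proteins form that of photosystem II, either as trimers (LHCB1 to LHCB3) or as single proteins next to the core (LHCB4 to LHCB7). Both core complexes combine subunits encoded in the chloroplast with subunits encoded in the nucleus, and the genes described here are nuclear. In green seedlings these are among the most strongly expressed nuclear genes, and their transcripts rise with light and chloroplast development.

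Each library listed 19164 to 20293 assembled loci, and the files give no read counts, so sequencing depth is unknown. The 10 most abundant loci held 10.9 to 14.8% of all FPKM in val1 val2 libraries, against 5.51 to 7.75% in the other 9 libraries. The median log2 change of all genes tested in val1 val2 against WT was -0.14, so a gene that moved with the median would show that shift. The FPKM of the mutated genes did not fully follow the library labels. Since the alleles are not named, these values cannot show whether a label is wrong. VAL1 stood at 13.2, 11.1 and 22.6 FPKM in val1 val2, at 12.7, 5.18 and 5.08 FPKM in val1, at 17.8, 15.2 and 16.4 FPKM in val2, and at 14.5, 17.7 and 17.3 FPKM in WT. VAL2 stood at 12.7, 13.2 and 12.6 FPKM in val1 val2, at 14.4, 11.05 and 15.2 FPKM in val1, at 9.74, 11.3 and 10.4 FPKM in val2, and at 21.8, 22.0 and 17.6 FPKM in WT. VAL2 was thus also lower in val1, where it is not the mutated gene (log2 change -0.57, limma adjusted p = 0.0429). An unbroken VAL1 locus was assembled in the libraries labelled val1 replicate 1 and val1 val2 replicate 3, and an unbroken VAL2 locus in those labelled val2 replicate 1 and val1 val2 replicates 2 and 3. Results are therefore also given without these libraries.

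In val1 val2 seedlings, most of the genes stood several-fold lower than in WT. Of the 37 tested, 30 fell and 4 rose (limma, adjusted p under 0.05), and 3 did not pass. The 30 that fell are 81.1% of those tested and the 4 that rose 10.8%, whereas 34.3% of all genes tested were called lower and 24.5% higher in the same comparison. In either direction 91.9% of the 37 were called, beside 58.8% of all genes tested. Of the 4 called higher, ELIP1 and ELIP2 reached 1 FPKM in 3 libraries only through val1 val2, so they had to differ and their calls are no support. Over genes that reach 1 FPKM in 3 libraries outside val1 val2, 30 of 35 fell (85.7%, beside 36.3% of all such genes) and 2 rose (5.71%, beside 20.6%), with a median log2 change of -1.75. The median log2 change over the 37 was -1.73, which is a 3.31-fold difference on the FPKM + 1 scale, beside -0.14 over all genes tested. In 30 of the 37 (81.1%) all val1 val2 libraries lay below all WT libraries, which held for 37.1% of all genes tested. Without the 2 libraries with an unbroken VAL1 locus, 31 were called lower and 3 higher, beside 62.3% of all genes in either direction. Without the 3 libraries with an unbroken VAL2 locus, 29 of 35 were called lower and 3 higher, beside 57.4% of all genes, with val1 val2 replicate 1 as the only val1 val2 library, assumed to vary like the other groups. Since whole seedlings were used, fewer green cells and less RNA per cell cannot be told apart.

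The leaf and seed markers moved at the same time. Over all genes tested in this comparison, 34.3% were called lower and 24.5% higher, with a median log2 change of -0.14. All 9 green leaf mesophyll markers, such as the RBCS genes for the small subunit of Rubisco, were lower in val1 val2 than in WT, with a median log2 change of -3.01. Their summed level was 1654 to 6846 FPKM in val1 val2 libraries, against 21008 to 23504 FPKM in WT libraries. The 12 seed maturation genes, which encode storage proteins and oleosins, were all higher, and 11 of the 12 were listed at 0 in every WT library. Since 4 of the 12 had no value in val1 val2 replicate 1, sums are given over the 8 with all values, at 59303, 49569 and 30686 FPKM in val1 val2 and 0 to 1.66 FPKM in WT. Of 9 root markers 7 fell. The sums over the 9 were 932 to 1789 FPKM in val1 val2 and 1572 to 1714 FPKM in WT. Most of each sum was PYK10, at 867, 995 and 1684 FPKM in val1 val2 and 1423 to 1542 FPKM in WT. All 5 epidermis and guard cell markers fell, with sums of 143 to 284 FPKM in val1 val2 and 331 to 428 FPKM in WT. The 1 phloem marker, SUC2, did not pass. No marker of leaf, root or epidermis was at 0 in all libraries of a group. The part of tissue makeup in the fall of the photosystem genes was not tested.

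The fall was not equally deep in the 3 val1 val2 libraries. Over the 30 genes that fell, the median level as a percentage of the WT mean was 19.98% in replicate 1, 25.9% in replicate 2 and 46.5% in replicate 3. Of the 27 with a value in all 3, replicate 3 was the highest in 27 and replicate 1 the lowest in 25. Replicate 3 was also the val1 val2 library with the highest sum of green leaf markers and the lowest share of FPKM in its 10 most abundant loci. Over the 30 genes with values in all 12 libraries, the summed level was 5816, 7323 and 13311 FPKM in val1 val2, 26301 to 28585 FPKM in val1, 31114 to 33038 FPKM in val2 and 25235 to 27892 FPKM in WT. These genes together held 0.742 to 1.66% of the FPKM of all assigned genes in val1 val2 libraries, against 3.46 to 3.91% in WT libraries. Leaving out val1 val2 replicate 3 moved the median log2 change of the 34 genes called to -2.06, and leaving out replicate 1 moved it to -1.47, beside -1.76 with all libraries. Without the 3 libraries with an unbroken VAL2 locus it was -2.23, and the change of 13 genes moved by over 1.5-fold.

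**Figure D1:**
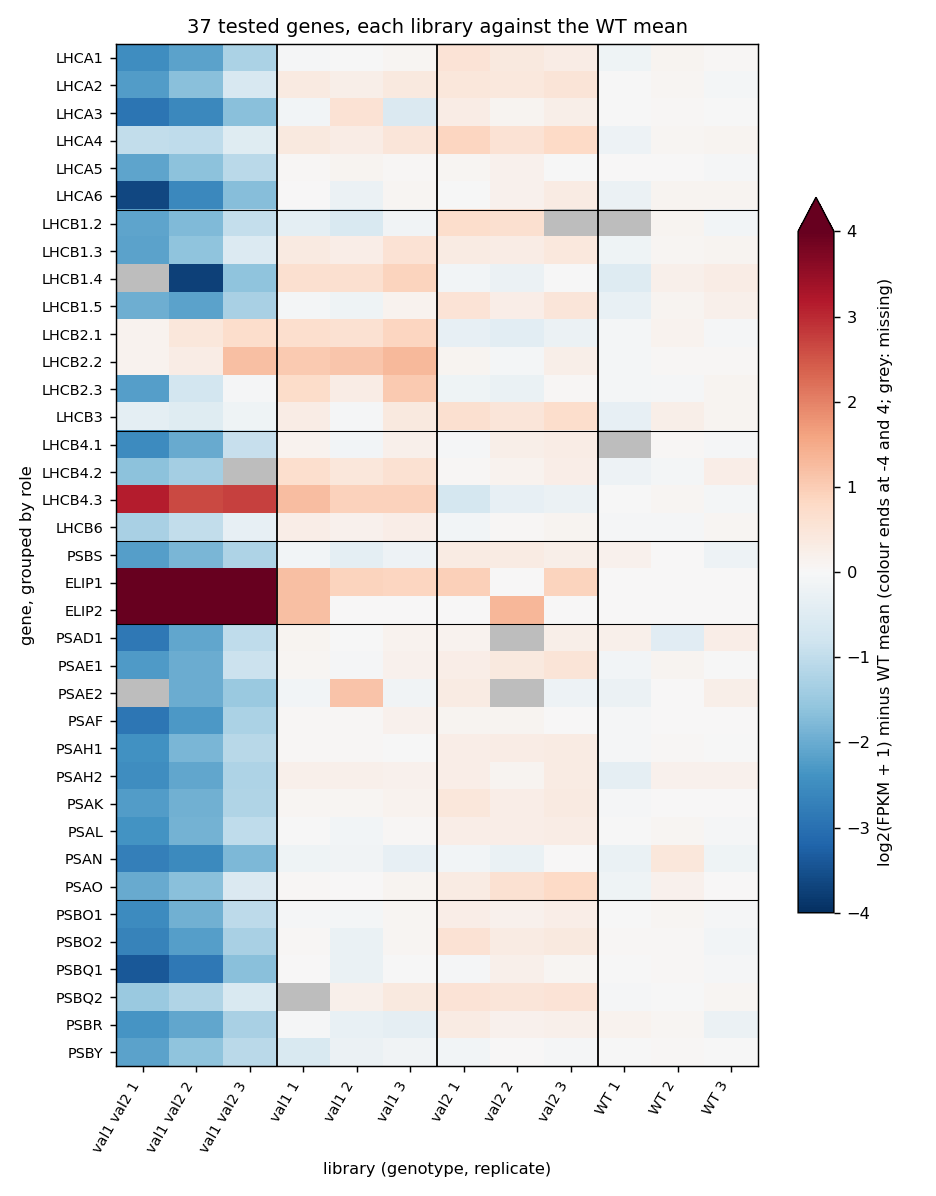
Heat map of log2(FPKM + 1) in each library (columns, by genotype and replicate) minus the WT mean for the 37 tested genes (rows, by role), with missing values in grey. The 3 val1 val2 columns are blue for most genes and lightest in replicate 3, whereas LHCB4.3, ELIP1 and ELIP2 are red.

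**Figure D2:**
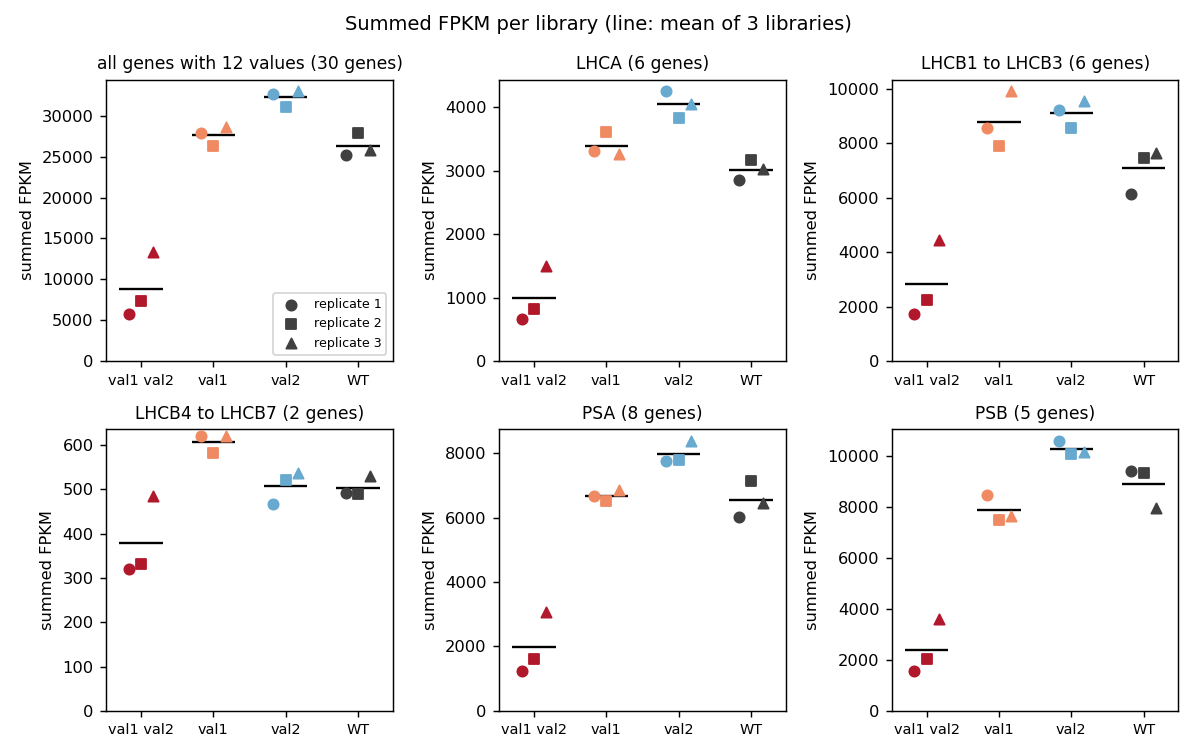
Summed FPKM per library by genotype, for the 30 genes with a value in all 12 libraries and for 5 of their role groups. Points are libraries with a marker shape per replicate and lines are means; all 3 val1 val2 libraries lie below the other 9 in every panel except that of the 2 LHCB4 to LHCB7 genes, where replicate 3 lies above a val2 library.

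The photosystem I antenna fell as a whole: 6 of 6 LHCA genes were lower in val1 val2, with a median log2 change of -1.79. LHCA1 (AT3G54890), one of the proteins that form the antenna belt, had 139, 174 and 324 FPKM in val1 val2 and 698, 837 and 808 FPKM in WT. LHCA2 (AT3G61470) had 188, 274 and 570.2 FPKM in val1 val2, against 883, 931 and 842 FPKM in WT, and LHCA3 (AT1G61520), which pairs with LHCA2 in the belt, had 98.5, 125 and 235 FPKM in val1 val2, against 744, 783 and 751 FPKM in WT. The val1 val2 and WT libraries did not overlap for any of the 3, and the log2 changes were -1.96 for LHCA1 (SE 0.251, limma adjusted p = 6.96e-05), -1.51 for LHCA2 (adjusted p = 0.00155) and -2.40 for LHCA3 (adjusted p = 9.89e-05).

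LHCA4 (AT3G47470), the partner of LHCA1, fell least of the 6. It had 218, 215 and 309 FPKM in val1 val2 and 382, 461 and 470.4 FPKM in WT, a log2 change of -0.83 (SE 0.162, limma adjusted p = 0.0012). LHCA5 (AT1G45474) and LHCA6 (AT1G19150) are low-abundance members that link photosystem I to the NDH complex of cyclic electron flow. LHCA6 had the lowest share of its WT level left among the 6, with 3.56, 8.67 and 16.6 FPKM in val1 val2 and 48.1, 60.4 and 61.5 FPKM in WT. Its log2 change was -2.64 (SE 0.371, adjusted p = 0.000137). LHCA5 stood at 21.5, 30.6 and 45.02 FPKM in val1 val2 and at 98.4, 97.6 and 93.6 FPKM in WT, a log2 change of -1.61 (adjusted p = 6.18e-05).

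The genes of the trimeric photosystem II antenna differed in whether they passed the threshold, and the genes were not tested against each other. Of 8 tested LHCB1 to LHCB3 genes, 4 fell, 1 rose and 3 did not pass. The 4 are 50% and the 1 is 12.5% of those tested, beside 34.3% lower and 24.5% higher of all genes tested. All 4 tested LHCB1 genes, which encode the main trimer protein, were among those that fell. LHCB1.3 (AT1G29930) was the most abundant of them, with 1208, 1747 and 3632 FPKM in val1 val2 and 4713, 5598 and 5682 FPKM in WT, and its log2 change was -1.43 (SE 0.324, limma adjusted p = 0.00313). LHCB1.5 (AT2G34420) had 398, 354 and 636 FPKM in val1 val2 and 1279, 1665 and 1775 FPKM in WT, a log2 change of -1.80 (adjusted p = 5.63e-05). Both sets of libraries were fully apart.

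LHCB1.2 (AT1G29910) stood at 107, 135 and 242 FPKM in val1 val2 and at 502 and 431 FPKM in the 2 WT libraries with a value, a log2 change of -1.61 (SE 0.308, limma adjusted p = 0.00189). With missing values set to 0 this call was lost and the change was 1.34 (adjusted p = 0.723). LHCB1.4 (AT2G34430) had 38.2 and 169.7 FPKM in the 2 val1 val2 libraries with a value and 366, 594 and 639.9 FPKM in WT, and its log2 change of -2.67 (SE 0.496, adjusted p = 0.00119) was -1.60 without val1 val2 replicate 2 and -3.73 without replicate 3. LHCB1.1 (AT1G29920), LHCB1.2 and LHCB1.3 lie next to each other on chromosome 1, and LHCB1.4 and LHCB1.5 on chromosome 2, and the copies are near-identical, so the assembly could have divided fragments between them. Summed over the 5 copies, with loci that cover several of them included, LHCB1 averaged 2888 ± 1576 FPKM in val1 val2 and 8048 ± 704 FPKM in WT (SD, n = 3 each), a log2 change of -1.61 (SE 0.312, limma adjusted p = 0.00117).

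The LHCB2 copies, which encode the trimer protein that is phosphorylated in state transitions, differed in direction and in how far their calls held. LHCB2.1 (AT2G05100) had 19.4, 24.5 and 29.4 FPKM in val1 val2 and 16.4, 19.4 and 16.9 FPKM in WT, a log2 change of 0.44 (SE 0.146, limma adjusted p = 0.0235) with libraries that met. The call was lost without WT replicate 1 (adjusted p = 0.0746), WT replicate 3 (0.0654), val1 val2 replicate 2 (0.0581) or val1 val2 replicate 3 (0.0671), and without the 10 most abundant loci in the scaling (0.0736) and with only the groups compared (0.0809). It was also lost without the libraries with an unbroken VAL1 locus (0.0837) or VAL2 locus (0.431). LHCB2.2 (AT2G05070) had 21.9, 25.0 and 47.6 FPKM in val1 val2 and 18.8, 20.8 and 20.5 FPKM in WT, and its log2 change of 0.55 did not pass (adjusted p = 0.0639). It passed with quantile normalization (log2 change 0.62, adjusted p = 0.0232), median scaling (0.71, 0.0156), weights per library (0.33, 0.0441) and the replicate block (0.55, 0.0378), and without val1 val2 replicate 1 (0.76, 0.0178). LHCB2.3 (AT3G27690) was listed at 0 in val1 val2 replicate 1, stood at 1.80 and 3.52 FPKM in the others and at 3.43, 3.51 and 3.98 FPKM in WT, and its log2 change of -0.99 did not pass (adjusted p = 0.0697). It passed with quantile normalization (log2 change -1.11, adjusted p = 0.0286), with weights per library (-0.81, 0.0174) and without val1 val2 replicate 3 (-1.47, 0.00684). It also passed without the libraries with an unbroken VAL1 locus (-1.47, 0.0112). Without those with an unbroken VAL2 locus the change was -2.21. Both changes of -1.47 rest on 1.80 FPKM in replicate 2 and on the 0 in replicate 1, where no locus was assembled. The change of -2.21 rests on that 0 alone, so these settings add no support for a fall. The copies are near-identical and the values are low for a main antenna protein, so their levels are uncertain. How the authors' processing treated fragments that match several copies is not given in the sources used here.

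LHCB3 (AT5G54270), the third trimer protein, had the smallest change of the group. It stood at 98.2, 92.3 and 114 FPKM in val1 val2 and at 102, 151 and 138 FPKM in WT, and the log2 change of -0.34 did not pass (limma adjusted p = 0.102) with libraries that overlapped. It passed without WT replicate 1 (log2 change -0.51, adjusted p = 0.0202), without the 10 most abundant loci in the scaling (-0.44, 0.0423) and with weights per library (-0.44, 0.0296).

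Among the single antenna proteins around the photosystem II core, LHCB4 had copies that moved in opposite directions. LHCB4.3 (AT2G40100), a little-expressed form of the LHCB4 protein (CP29), had 122, 86.1 and 90.7 FPKM in val1 val2 and 12.8, 13.7 and 12.2 FPKM in WT. It thus rose in every val1 val2 library above every WT library, with a log2 change of 2.85 (SE 0.164, limma adjusted p = 1.86e-07), and the change ranged from 2.54 to 3.16 over the 28 alternatives. The locus listed in val1 val2 replicate 1 spans positions 16745640 to 16747163 on chromosome 2 (TAIR10).

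LHCB4.1 (AT5G01530), the main form, had 212, 297 and 638 FPKM in val1 val2 and 1258 and 1158 FPKM in the 2 WT libraries with a value, a log2 change of -1.81 (SE 0.371, limma adjusted p = 0.00211). LHCB4.2 (AT3G08940) had 68.9 and 83.1 FPKM in the 2 val1 val2 libraries with a value and 189, 206 and 258 FPKM in WT, a log2 change of -1.50 (SE 0.158, adjusted p = 3.14e-05). With missing values set to 0, both calls were lost, at 1.60 for LHCB4.1 (adjusted p = 0.584) and -3.58 for LHCB4.2 (adjusted p = 0.051). Within each library LHCB4.1 stood 1.73, 3.45 and 7.04 times as high as LHCB4.3 in val1 val2 and 92.0 and 95.2 times as high in 2 WT libraries. LHCB6 (CP24, AT1G15820), which attaches the outer trimers, had 198, 247 and 394 FPKM in val1 val2 and 478, 476 and 519 FPKM in WT, a log2 change of -0.87 (SE 0.205, adjusted p = 0.004).

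**Figure D3:**
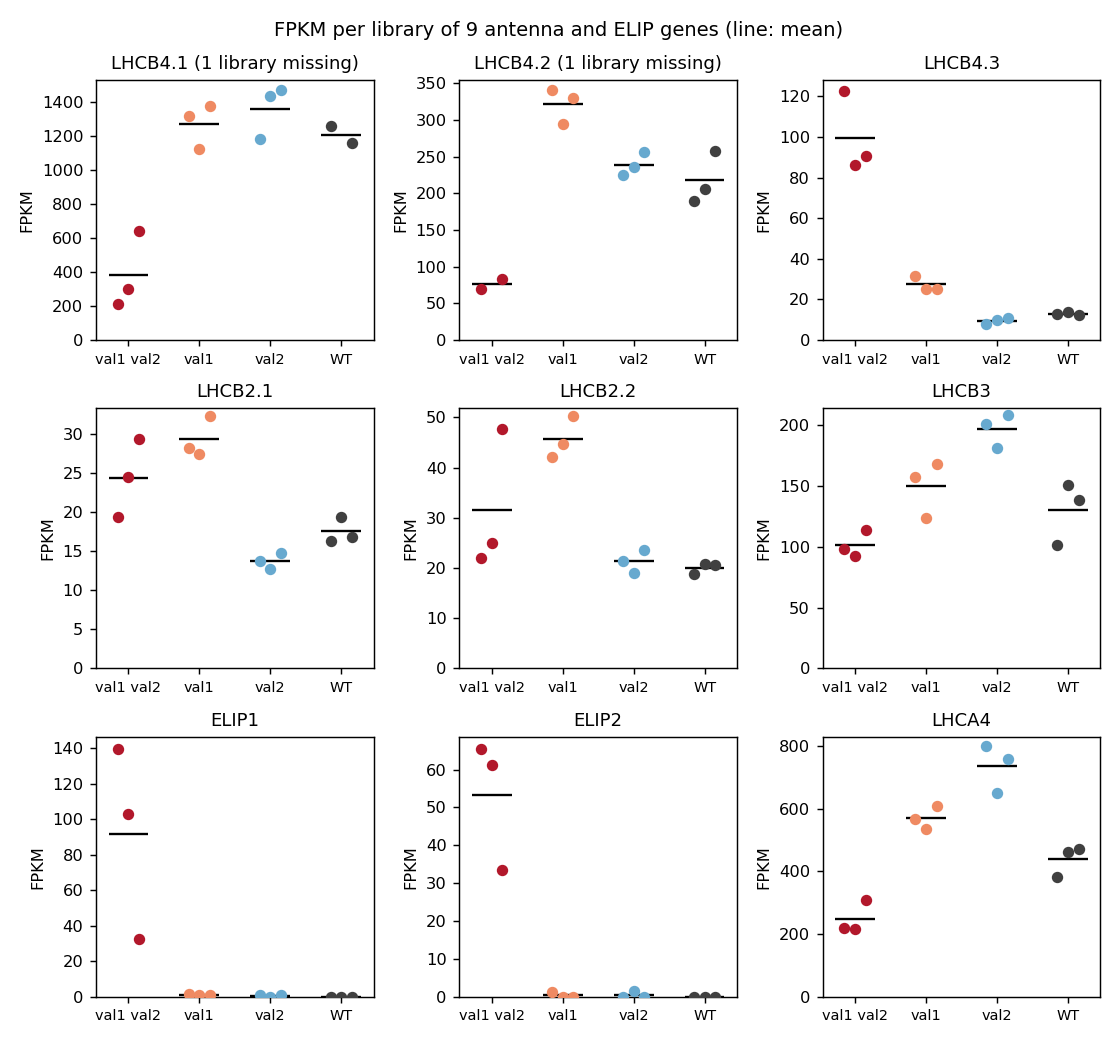
FPKM of 9 antenna and ELIP genes in each library by genotype, with a line at the mean. LHCB4.3, ELIP1 and ELIP2 are highest in val1 val2, LHCB4.1 and LHCB4.2 are lowest there, and LHCB2.1 and LHCB2.2 are higher in val1 than in WT.

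Both ELIP genes were listed well above 1 FPKM in every val1 val2 library and at 0 in every WT library. They encode early light-induced proteins, relatives of the antenna that bind pigment for a short time under high light and during greening. ELIP1 (AT3G22840) had 139.5, 103 and 32.3 FPKM in val1 val2 libraries and 0 in all 3 WT libraries. ELIP2 (AT4G14690) had 65.4, 61.1 and 33.4 FPKM in val1 val2 libraries and 0 in all 3 WT libraries. Both entered the test only through their val1 val2 values, so no p is given. Replicate 3 was lowest for both, in contrast to the genes that fell, where it was highest. No fold is given against a group listed at 0. The locus of ELIP1 in val1 val2 replicate 1 spans positions 8084494 to 8085702 on chromosome 3, and that of ELIP2 positions 8417964 to 8419298 on chromosome 4 (TAIR10).

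PSBS (AT1G44575), the antenna relative that switches on heat dissipation of excess light, fell. It had 65.4, 84.2 and 129 FPKM in val1 val2 and 339.7, 309 and 266 FPKM in WT, a log2 change of -1.75 (SE 0.21, limma adjusted p = 4.4e-05). The libraries did not overlap.

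All 10 tested photosystem I subunit genes fell in val1 val2, within a narrow range of log2 changes from -2.35 to -1.43. PSAN (AT5G64040), a subunit on the lumen side near the plastocyanin docking site, fell most, with 124, 141 and 237 FPKM in val1 val2 and 683, 1125 and 725 FPKM in WT (log2 change -2.35, SE 0.249, limma adjusted p = 1.84e-05). PSAF (AT1G31330), which helps plastocyanin to dock, had 113, 172 and 353 FPKM in val1 val2 and 830, 863 and 858 FPKM in WT (log2 change -2.15, adjusted p = 0.000156). PSAO (AT1G08380), a small subunit on the side where LHCII binds, fell least, with 227, 290.3 and 624 FPKM in val1 val2 and 819, 1053 and 931 FPKM in WT (log2 change -1.43, adjusted p = 0.00222). In each of these genes the highest val1 val2 library was replicate 3 and lay below the lowest WT library.

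The stromal ridge subunits, which receive ferredoxin, fell to a like extent. PSAD1 (AT4G02770) had 89.8, 155 and 327 FPKM in val1 val2 and 752, 478 and 792 FPKM in WT (log2 change -1.98, SE 0.391, limma adjusted p = 0.00169). PSAE1 (AT4G28750) had 193, 236 and 514 FPKM in val1 val2 and 868, 996 and 920 FPKM in WT (log2 change -1.69, adjusted p = 0.000512). PSAE2 (AT2G20260), its second copy, had 201 and 288 FPKM in the 2 val1 val2 libraries with a value and 678, 803 and 936 FPKM in WT (log2 change -1.73, adjusted p = 0.00483). The groups did not overlap in any of them. With missing values set to 0 the calls of PSAD1 (adjusted p = 0.465) and PSAE2 (-4.37, adjusted p = 0.214) were lost.

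On the side of photosystem I where LHCII docks in state transitions, PSAH1 (AT3G16140) had 80.2, 121 and 202 FPKM in val1 val2 and 424, 449.8 and 428 FPKM in WT (log2 change -1.78, SE 0.251, limma adjusted p = 0.000139). PSAH2 (AT1G52230), the other copy of the same subunit, had 70.1, 92.6 and 169 FPKM in val1 val2 and 312, 445 and 452 FPKM in WT (log2 change -1.93, adjusted p = 0.000125). PSAK (AT1G30380), which binds the antenna, had 290.4, 360 and 589.5 FPKM in val1 val2 and 1324, 1384 and 1385 FPKM in WT (log2 change -1.78, adjusted p = 4.35e-05). PSAL (AT4G12800), on the PSAH side of the complex, averaged 248 ± 123 FPKM in val1 val2 and 786 ± 30.3 FPKM in WT (SD, n = 3 each, limma adjusted p = 0.000213). The spread between libraries was larger in val1 val2 than in WT for PSAH1, PSAK and PSAL.

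Photosystem II subunits also fell in all 6 tested genes, with a median log2 change of -1.87. PSBO, PSBP and PSBQ proteins form the part that shields the water-splitting manganese cluster on the lumen side. PSBO1 (AT5G66570) had 226, 346 and 623 FPKM in val1 val2 and 1285, 1372 and 1250 FPKM in WT (log2 change -1.83, SE 0.28, limma adjusted p = 0.000248). PSBO2 (AT3G50820) had 61.7, 84.5 and 158 FPKM in val1 val2 and 412, 409.7 and 365 FPKM in WT (log2 change -2.06, adjusted p = 8.59e-05). For both copies the 3 val1 val2 libraries lay below the 3 WT libraries.

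The copies of PSBQ fell by different amounts. PSBQ1 (AT4G21280) had 114, 168 and 379.8 FPKM in val1 val2 and 1213, 1253 and 1193 FPKM in WT (log2 change -2.64, SE 0.334, limma adjusted p = 6.32e-05). PSBQ2 (AT4G05180) had 164, 197 and 299 FPKM in val1 val2 and 443, 451 and 478 FPKM in WT (log2 change -1.099, SE 0.194, adjusted p = 0.000876), a call lost with missing values set to 0 (adjusted p = 0.677). The ratio of PSBQ1 to PSBQ2 was 0.699, 0.853 and 1.27 in val1 val2, 1.93 and 2.03 in the 2 val1 libraries with both values, 1.75 to 2.21 in val2, and 2.74, 2.78 and 2.49 in WT. PSBQ2 was therefore the more abundant copy in 2 of 3 val1 val2 libraries and the less abundant one in all WT libraries.

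PSBR (AT1G79040), a small lumenal subunit tied to PSBP binding, was with LHCB1.3 one of the most abundant in WT. It had 1064, 1307 and 2231 FPKM in val1 val2 and 6056, 5851 and 4700.5 FPKM in WT (log2 change -1.91, SE 0.249, limma adjusted p = 7.79e-05). PSBY (AT1G67740), a membrane subunit, had 97.6, 142 and 204 FPKM in val1 val2 and 424, 444 and 431 FPKM in WT (log2 change -1.61, adjusted p = 0.000133).

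**Figure D4:**
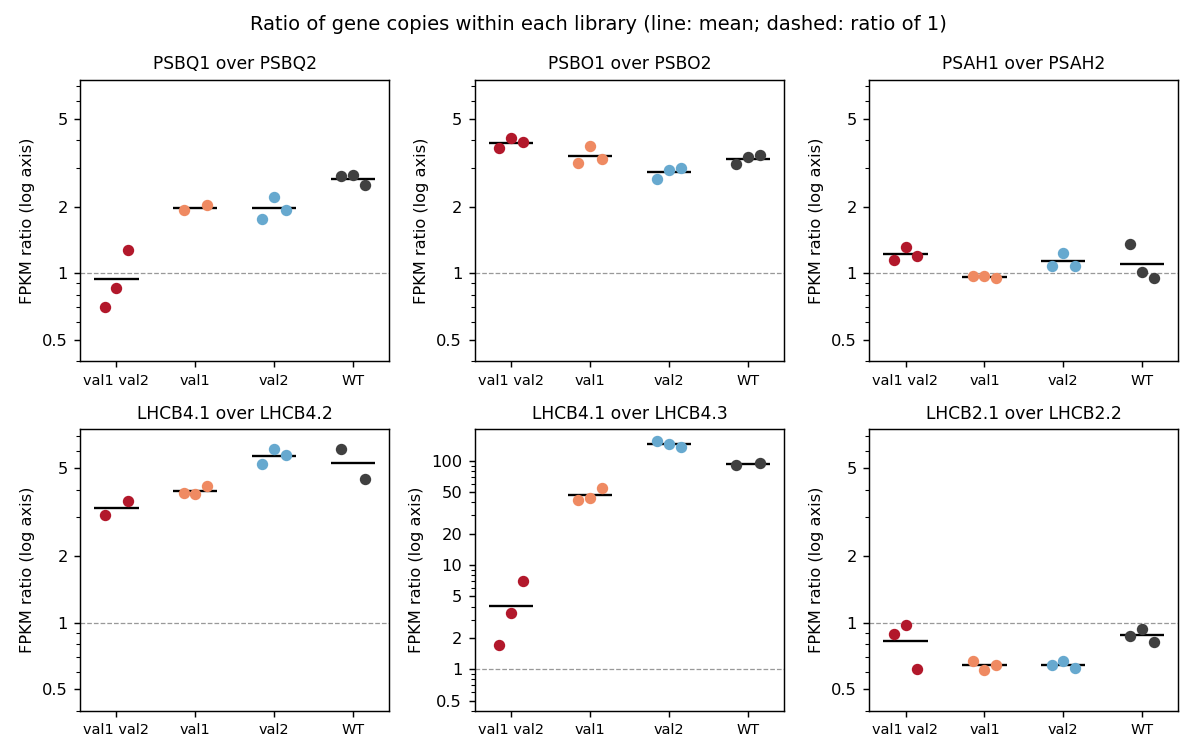
Ratio of FPKM between gene copies within each library by genotype, on a log axis, with lines at the mean and a dashed line at 1. The ratios of PSBQ1 over PSBQ2 and LHCB4.1 over LHCB4.3 are lowest in val1 val2, while those of PSBO1 over PSBO2 and PSAH1 over PSAH2 stay within 2.67 to 4.09 and 0.946 to 1.36.

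The PSBO and PSAH pairs differed less in proportion, given here without a test. The ratio of PSBO1 to PSBO2 averaged 3.90 ± 0.21 in val1 val2 and 3.30 ± 0.16 in WT (SD, n = 3 each), and that of PSAH1 to PSAH2 averaged 1.22 ± 0.084 in val1 val2 and 1.11 ± 0.222 in WT. The ratio of ELIP1 to ELIP2 was 2.13, 1.69 and 0.969 in the val1 val2 libraries and could not be formed in WT. Among the near-identical copies, whose levels are uncertain, LHCB1.3 stood 45.8 and 21.4 times as high as LHCB1.4 in 2 val1 val2 libraries and 12.9, 9.42 and 8.88 times in WT. LHCB2.1 stood 13.6 and 8.38 times as high as LHCB2.3 in 2 val1 val2 libraries and 4.77, 5.54 and 4.25 times in WT.

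The single mutants showed far fewer calls. The model takes 1 spread per gene for all 4 groups, so wide val1 val2 spreads enter these comparisons too. For PSAL the SD was 123 FPKM in val1 val2, 30.3 FPKM in WT and 4.88 FPKM in val2. In val1, 3 of 37 genes passed the test, all higher than in WT, or 8.11% beside 3.86% of all genes tested (2.15% higher and 1.71% lower). They were LHCB2.1, LHCB2.2 and LHCB4.3. LHCB2.1 and LHCB2.2 are near-identical copies, so their calls are not independent. With the LHCB1 and LHCB2 copies summed, 2 of 32 passed, beside 3.85% of all genes. So small a count lies near the background. With only the val1 and WT libraries fitted and the copies kept apart, 4 of 37 passed, beside 5.32% of all genes. LHCB4.3 had 31.4, 25.2 and 25.3 FPKM in val1 and 12.8, 13.7 and 12.2 FPKM in WT, a log2 change of 1.02 (SE 0.164, limma adjusted p = 0.00553), and it passed in all 28 alternatives. The val1 and WT libraries were fully apart.

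LHCB2.2 had 42.1, 44.7 and 50.2 FPKM in val1 and 18.8, 20.8 and 20.5 FPKM in WT, a log2 change of 1.15 (SE 0.233, limma adjusted p = 0.0203). LHCB2.1 had 28.3, 27.4 and 32.4 FPKM in val1 and 16.4, 19.4 and 16.9 FPKM in WT, a log2 change of 0.71 (SE 0.146, adjusted p = 0.0221). All val1 libraries lay above all WT libraries for both. LHCB2.2 missed the threshold when any 1 of the 3 val1 or 3 WT libraries was left out, with adjusted p of 0.0515 without WT replicate 3 to 0.0841 without val1 replicate 3. LHCB2.1 missed it without WT replicate 1 (0.0924) or 3 (0.0643) and without val1 replicate 1 (0.0595), 2 (0.053) or 3 (0.0941), and passed without WT replicate 2 (0.0411). Summed over 3 copies, LHCB2 averaged 81.7 ± 8.27 FPKM in val1 and 41.2 ± 2.60 FPKM in WT (SD, n = 3 each), a log2 change of 0.97 (SE 0.202, limma adjusted p = 0.0243).

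Over all 37 genes, the median log2 change in val1 was 0.07, beside -0.02 over all genes tested, and 25 values were positive and 12 negative. In 15 of them (40.5%) all val1 libraries lay above all WT libraries, which held for 13.9% of all genes tested. LHCB4.2 had 341, 294 and 330 FPKM in val1 and 189, 206 and 258 FPKM in WT, and did not pass (limma adjusted p = 0.0593). LHCA, PSA and PSB genes gave no call in val1. Of these, 1 LHCA gene (LHCA4, log2 change 0.38) had an unadjusted p under 0.05. Markers also moved in val1: all 12 seed maturation genes were called higher, beside 2.15% of all genes tested. Their sums were 151 to 160.2 FPKM in val1 and 0 to 1.66 FPKM in WT. The green leaf markers summed to 17316 to 17982 FPKM in val1 and 21008 to 23504 FPKM in WT, and 0 of 9 passed by limma, also at an unadjusted p under 0.05. Their part in the val1 results was not tested.

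In val2, 1 of 37 genes passed, or 2.70% beside 4.36% of all genes tested (1.74% higher and 2.62% lower). That count lies near the background. With only the val2 and WT libraries fitted, 4 passed, beside 7.23% of all genes. The gene called with all libraries was LHCA4, with 800.2, 651 and 759 FPKM in val2 and 382, 461 and 470.4 FPKM in WT. Its log2 change was 0.75 (SE 0.162, limma adjusted p = 0.0285). The val2 libraries lay above the WT libraries. The call was lost without WT replicate 1 (adjusted p = 0.104), 2 (0.079) or 3 (0.0503), without val2 replicate 1 (0.121) or 3 (0.0922), with quantile normalization (0.0542) and with the largest locus as listed (0.0639). LHCB3 had 201, 181 and 208 FPKM in val2 and 102, 151 and 138 FPKM in WT and did not pass (adjusted p = 0.0737).

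Small upward shifts were nevertheless frequent in val2. Of the 37 values, 31 were positive, with a median log2 change of 0.24 beside 0.00 over all genes tested. In 19 of the 37 (51.4%) all val2 libraries lay above all WT libraries, which held for 17% of all genes tested. The shift depended on scaling: the median was 0.21 with each library scaled to its median gene, 0.16 without the 10 most abundant loci and 0.11 with quantile normalization, where 25 values were positive. The sum over the 30 genes with all values was 32271 ± 1020 FPKM in val2 and 26331 ± 1389 FPKM in WT (SD, n = 3 each). The green leaf markers summed to 25036 to 28638 FPKM in val2 and 21008 to 23504 FPKM in WT, and 0 of 9 passed by limma, also at an unadjusted p under 0.05. Of the 12 seed maturation genes 6 were called higher, beside 1.74% of all genes tested. The sums over the 12 were 15.3 to 21.03 FPKM in val2 and 0 to 1.66 FPKM in WT. Of 9 root markers 2 were called lower, beside 2.62% of all genes tested. The sums over the 9 were 1506 to 1542 FPKM in val2 and 1572 to 1714 FPKM in WT. Most of each sum was PYK10, at 1375 to 1412 FPKM in val2 and 1423 to 1542 FPKM in WT. The part of tissue makeup in the shift was not tested.

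**Figure D5:**
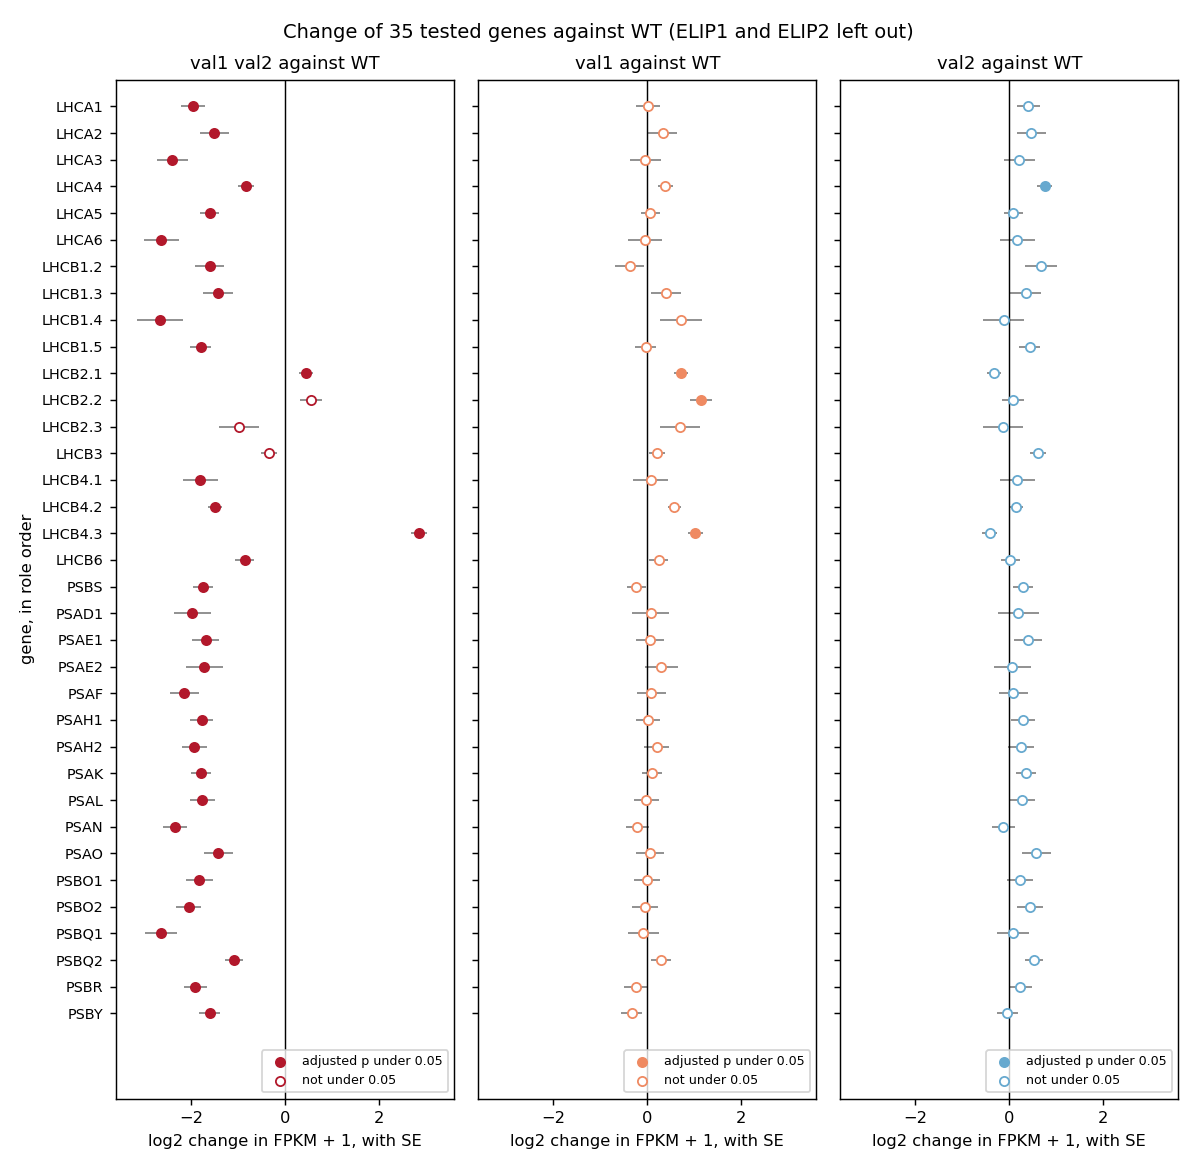
Log2 change (FPKM + 1 scale) with its SE for 35 tested genes in role order, in val1 val2, val1 and val2, each against WT. Filled points have a limma adjusted p under 0.05; in val1 val2 most lie between -2.67 and -0.83 with LHCB4.3 at 2.85, and in val1 and val2 few points are filled.

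Set against each single mutant, val1 val2 gave a like picture, with 33 genes lower and 3 higher than in val1, and 31 lower and 4 higher than in val2. ELIP1 and ELIP2 are among those higher in both and are no support there either. These comparisons share the val1 val2 libraries with the comparison against WT. In either direction 97.3% of the 37 were called against val1 and 94.6% against val2, beside 58.1% of all genes tested against val1 (25.5% higher, 32.5% lower) and 59.7% against val2 (25% higher, 34.8% lower). LHCB4.3 rose relative to val1 (log2 change 1.82, limma adjusted p = 6e-06) and relative to val2 (3.26, adjusted p = 5.81e-08). LHCB3 fell relative to val1 (-0.55, adjusted p = 0.0165) and to val2 (-0.95, adjusted p = 0.000613), although its change from WT had not passed. LHCB2.1 did not differ beyond the threshold from val1 (-0.27, adjusted p = 0.137) and was higher than in val2 (0.77, adjusted p = 0.000982).

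The interaction, the change in val1 val2 minus the changes in val1 and in val2, passed the test in 34 of the 37 genes. It was negative in 31 and positive in 3, together 91.9% beside 46.5% of all genes tested (21.2% positive and 25.3% negative). The median was -2.05, beside -0.12 over all genes tested. The 3 positive genes were LHCB4.3, ELIP1 and ELIP2, of which ELIP1 and ELIP2 entered the test only through val1 val2 and are no support. LHCB4.3 had an interaction of 2.24 (SE 0.232, limma adjusted p = 3.06e-05). The 3 LHCB2 copies did not pass, with LHCB2.1 at 0.06 (adjusted p = 0.838), LHCB2.2 at -0.69 (adjusted p = 0.111) and LHCB2.3 at -1.55 (adjusted p = 0.0587).

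Of the 8 genes that could not be tested, 6 had values in both val1 val2 and WT that were all lower in val1 val2. Such a gap held for 37.1% of all genes tested, and it is easier to reach with few values. Of the 6, all but PSAG had only 1 value in val1 val2 or in WT. LHCB5 (CP26, AT4G10340), a single antenna protein, had 527 FPKM in val1 val2 replicate 3, the 1 val1 val2 library with a value, and 919 to 1107 FPKM in WT. PSAG (AT1G55670), which anchors the photosystem I antenna, had 203, 278 and 514 FPKM in val1 val2 and 1300.3 and 1453 FPKM in 2 WT libraries. PSBP1 (AT1G06680), of the water-splitting complex, had 414 FPKM in val1 val2 replicate 3 and 911 to 1097 FPKM in WT. PSBW (AT2G30570) had 165, 248 and 400 FPKM in val1 val2 and 1092 FPKM in 1 WT library, and PSBX (AT2G06520) had 223, 182 and 769.9 FPKM in val1 val2 and 1558 FPKM in 1 WT library. LHCB7 (AT1G76570), a rare antenna protein, had 2.67 and 2.81 FPKM in 2 val1 val2 libraries and 7.42 FPKM in 1 WT library.

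PSAD2 (AT1G03130) had a value in WT replicate 2 only, of 190 FPKM, and LHCB1.1 was listed at 0 in all val1 val2 libraries and at 0 and 14.8 FPKM in 2 WT libraries. When a locus over several genes was given to each of them, all 45 genes could be tested. Then 34 were lower and 4 higher in val1 val2 than in WT, beside 54.3% of all genes called, and the 4 genes added to those lower were LHCB5, LHCB7, PSAD2 and PSBP1 (limma adjusted p = 0.00166, 0.015, 0.0298 and 0.00213). PSAG, PSBX, PSBW and LHCB1.1 did not pass (limma adjusted p = 0.0534, 0.153, 0.362 and 0.218). A value from a shared locus also holds fragments of the neighbouring genes.

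Genes that work with the photosystems moved with them in val1 val2. All 14 genes of electron transport and ATP synthase fell, with a median log2 change of -2.14, and FNR2, which reduces NADP, had the largest, with 18.4, 35.6 and 83.4 FPKM in val1 val2 and 509.8, 537 and 484 FPKM in WT (log2 change -3.71, SE 0.389, limma adjusted p = 1.73e-05). ATPC1, the gamma subunit of ATP synthase, had 69.4, 100.5 and 142 FPKM in val1 val2 and 508, 534 and 504 FPKM in WT (log2 change -2.36, adjusted p = 3.74e-06). PETE2, a plastocyanin, had 176, 252 and 470 FPKM in val1 val2 and 1463, 1486 and 1148 FPKM in WT (log2 change -2.30, adjusted p = 6.44e-05). All 16 genes of assembly, import and state transitions fell, with a median of -1.53. Over all genes tested, 34.3% were called lower, with a median of -0.14. The largest were those of CPSRP54, which carries antenna proteins to the membrane (log2 change -2.33, adjusted p = 0.000146), and STN8, the kinase of photosystem II core proteins (log2 change -2.29, adjusted p = 0.000164). In val1 and in val2 none of the genes of either list passed by limma. With an unadjusted p under 0.05 there was 1 of each list in val1 and 0 in val2.

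Of 16 regulators of light-harvesting genes, 14 could be tested. Of these, 11 fell and 2 were called higher in val1 val2, beside 34.3% and 24.5% of all genes tested. PIF5, a phytochrome-interacting repressor of greening in the dark, had the largest fall, at -2.39 (adjusted p = 0.000357). The 2 called higher, named here for that, were the clock gene LHY and SIG5, a light-induced sigma factor of plastid transcription. LHY had 14.5, 1.09 and 1.104 FPKM in val1 val2, replicate 1 standing far above the others, and 0 to 0.233 FPKM in WT. It entered the test only through its val1 val2 values, so its call is no support and no p is given. SIG5 had 9.13, 8.45 and 5.997 FPKM in val1 val2 and 2.11, 1.67 and 1.83 FPKM in WT (log2 change 1.61, SE 0.162, adjusted p = 1.23e-05). GLK1 and GLK2, activators of antenna genes named here after their values were seen, were among those that fell. GLK1 had 15.7, 23.7 and 40.7 FPKM in val1 val2 and 49.8, 72.7 and 41.0 FPKM in WT (log2 change -1.06, limma adjusted p = 0.00973), and GLK2 had 10.1, 12.4 and 24.3 FPKM in val1 val2 and 22.8, 22.1 and 28.4 FPKM in WT (log2 change -0.70, adjusted p = 0.03). The libraries of val1 val2 and WT did not overlap for GLK1 and did overlap for GLK2. In val1 and in val2 none of the 14 regulators tested passed by limma. With an unadjusted p under 0.05 there was 1 in val1 and 4 in val2. GLK1 also lay below all WT libraries in both, at 40.7, 34.9 and 40.5 FPKM in val1 and 26.7, 32.9 and 30.3 FPKM in val2. GLK2 did not, at 30.3, 30.0 and 32.4 FPKM in val1 and 26.7, 24.5 and 27.8 FPKM in val2.

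By level in WT, 10 of the 45 genes averaged at least 1000 FPKM, 25 lay between 100 and 1000 FPKM and 10 below 100 FPKM. The order was led by PSBR and LHCB1.3, at 5536 ± 731 and 5331 ± 537 FPKM (SD, n = 3 each), which did not differ beyond their spread. In val1 val2 the same pair led in the other order, with LHCB1.3 at 2195 ± 1272 FPKM and PSBR at 1534 ± 616 FPKM, again within their spread. Only these exceeded 1000 FPKM on average in val1 val2. PSBS is set too low on this scale, since its annotated gene is longer than the locus assembled for it.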

How the data were processed

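The deposited tables give FPKM for assembled loci in each library, made by the authors from their reads, with the locus position and confidence bounds, per the file headers. Tools listed in the submitters' processing notes, without their roles, are Cufflinks 2.2.1, TopHat2 2.1.1, MACS2 and Cuffdiff, with TAIR10 as the genome build. Genome binding data were not analysed here. Loci were matched by position to TAIR10.1 gene models, used for names and spans only; median locus starts lay 62 to 80 bases inside those of the genes and median ends 66 to 80 bases. Each gene received the FPKM of its loci weighted by the share of the gene that they covered. The value was left missing in 3 cases: a locus over 50% or more of several genes in which the gene made up under 75%, coverage by a neighbour's locus only, or no locus while both other replicates reached 10 FPKM. Any other gene without a locus is listed at 0.

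The limma package (version 3.58.1, R 4.3.3) was applied to log2 of FPKM plus a pseudocount of 1, which understates changes of low genes. A single two-sided model held the means of 4 groups over 12 libraries, with 1 spread per gene for all groups and a mean-dependent prior. Genes entered with 1 FPKM or more in 3 libraries and 2 values per group, p was adjusted over 17785 genes by the Benjamini-Hochberg method, and the threshold was 0.05. The model was also run on simulated data with equal spread in all groups and few changed genes. Those settings differ from the val1 val2 libraries, so the run adds no support to the calls given here. Groups and replicate numbers follow the sample titles. For val1 replicates 2 and 3 the names of the deposited files differ from those titles. Genes that overlap on opposite strands are uncertain, as strand use is not given in the sources used here. No sequences were used.

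The 45 genes, the 8 lists and the tests were chosen with earlier results of these data known. In each role group, values are given for up to 6 genes with the largest changes against WT among those past the threshold, for the gene with the smallest change in val1 val2, and for all copies of paired genes. From the lists of genes that work with the photosystems, the 6 with the largest changes are named. Alternatives changed the pseudocount, filter, scaling, samples fitted, library weights, replicate block and treatment of shared or missing loci, or left out libraries. Of these, 3 were chosen after seeing the data: scaling without the 10 most abundant loci, and the sets without an unbroken VAL1 or VAL2 locus. Python 3.11.15, numpy 2.4.6, pandas 2.3.3 and matplotlib 3.10.9 were used.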

Additional observations from a re-analysis of the deposited data

Results flagged for a closer look

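For 34 genes, the change in val1 val2 differed from the sum of the changes in val1 and val2, in a direct limma test of that difference with adjusted p under 0.05. These are 91.9% of the 37 tested, beside 46.5% of all genes tested. On the log2(FPKM + 1) scale, the difference among the LHCA genes was -2.38 for LHCA1, -2.31 for LHCA2, -2.58 for LHCA3, -1.97 for LHCA4, -1.76 for LHCA5 and -2.76 for LHCA6. In the trimeric antenna it was -1.90 for LHCB1.2, -2.17 for LHCB1.3, -3.26 for LHCB1.4, -2.19 for LHCB1.5 and -1.16 for LHCB3. In the single antenna proteins it was -2.05 for LHCB4.1, -2.21 for LHCB4.2, 2.24 for LHCB4.3 and -1.13 for LHCB6. It was -1.81 for PSBS, and 4.70 for ELIP1 and 4.87 for ELIP2, whose values depend on the pseudocount because WT is listed at 0. Both ELIP genes entered the test only through val1 val2, so their passing is no support.

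Among photosystem I subunits the difference was -2.25 for PSAD1, -2.15 for PSAE1, -2.09 for PSAE2, -2.32 for PSAF, -2.10 for PSAH1, -2.38 for PSAH2, -2.24 for PSAK, -2.03 for PSAL, -2.01 for PSAN and -2.06 for PSAO. Among photosystem II subunits it was -2.05 for PSBO1, -2.44 for PSBO2, -2.64 for PSBQ1, -1.92 for PSBQ2, -1.91 for PSBR and -1.23 for PSBY.

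Loci on the plastid genome, which encodes the chloroplast-made partners of these subunits, enter no comparison. Which plastid genes the loci cover was not looked at. They were more numerous in val1 val2, with 21, 25 and 15 listed (median 21). The other groups had 7, 0 and 5 in val1, 9, 6 and 10 in val2, and 5, 5 and 4 in WT. Their summed level was 551, 285 and 385 FPKM in val1 val2 and 2130, 4564 and 1791 FPKM in WT. It was 3959.5, 0 and 3232 FPKM in val1 and 1494, 1848.5 and 745 FPKM in val2. In val1 replicate 2 no plastid locus was listed.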

How the results depend on the processing

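The count of genes called in val1 val2 against WT, 34 of 37 with all libraries, lay between 30 and 38 over 28 alternatives. It was 30 of 43 with missing values as 0, 30 of 32 with copies summed and 38 of 45 with shared loci. The share of all genes called ran from 50.5 to 67%. The counts against val1, against val2 and for the interaction also stayed within 1.5 times. As 34 to 36 of 37 were called with all libraries, these counts could fall but not rise by that much. The 3 genes called in val1 became 5 with weights per library (10.4% of all genes called, beside 3.86% without weights) and 1 to 5 on leaving out 1 library at a time (1 without WT replicate 1 or any 1 val1 replicate, 5 without val1 val2 replicate 3, with 7.16% of all genes). The 1 gene called in val2 (4.36% of all genes) became 4 with only the groups compared (7.23%), 5 with weights per library (12.7%), 2 without an unbroken VAL1 locus (8.09%) and 5 of 35 without an unbroken VAL2 locus (5.46%). By limma it became 0 with quantile normalization (4.66%) and 0 with the largest locus as listed (3.74%), with 4 genes at an unadjusted p under 0.05 in each. Leaving out single libraries gave 0 to 4 (0 without any 1 WT replicate or without val2 replicate 1 or 3, with 2 to 4 genes at an unadjusted p under 0.05; 4 without val1 val2 replicate 3, with 9.13% of all genes). At an unadjusted limma p under 0.05, val2 had 5 genes with all libraries and 16 with only the groups compared. It had 18 with weights per library and 15 without val1 val2 replicate 3. In val1 these counts were 5, 11, 13 and 11. With all libraries, 3206 of 17785 genes tested had such a p in val2 and 3085 in val1. The cause was not tested. With missing values set to 0, which puts 0 in place of WT replicate 1, the changes of LHCB1.2 and LHCB4.1 in val1 val2 were 1.34 (limma adjusted p = 0.723) and 1.60 (adjusted p = 0.584), and the calls of PSAE2 (-4.37, adjusted p = 0.214), LHCB4.2 (-3.58, 0.051), PSAD1 (-1.98, 0.465) and PSBQ2 (-1.099, 0.677) were lost.

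The replicate numbers are not given as pairs, and the 18 correlations of deviations between same-numbered libraries lay between -0.035 and 0.061. With the replicate block the counts were 3 in val1, 1 in val2, 35 in val1 val2 against WT, 36 against val1, 35 against val2 and 35 for the interaction. In 22 of 36 cases a library correlated best with its own number among the 3 of another group, more often than 1 in 3. The cases are reciprocal and not independent, and whether the numbers mark pairs was not tested. Sequencing depth is unknown, so low values such as those of LHCB2.3 and LHCB7 carry no counting interval.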
